A study of Mus musculus with 12 samples.

Results

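CpG-sparse windows in distal intergenic DNA are described here across a time course of DNA methylation in 2 lines of immortalized mouse embryonic fibroblasts (iMEFs). A window is a fixed 500 bp bin of an autosome in build mm10. A member holds 3 to 8 cytosines that were measured in all 12 libraries, has its centre outside every annotated gene, and lies more than 20 kb from the nearest gene end. There were 5632 such windows among the 73824 autosomal windows with at least 3 shared cytosines, which is 7.63%. No methylation value entered the choice.

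The experimental line had the genotype R26M2rtTA/+;TetOcre;Sdhcfl/fl and the control line R26M2rtTA/+;TetOcre;Sdhcfl/wt. Both lines thus carried the tetracycline transactivator, the inducible Cre transgene and at least one floxed Sdhc allele, both had been immortalized, and both received doxycycline at 1 µg/mL. Each line gave 1 library by reduced representation bisulfite sequencing (RRBS) at day 0 and after 5, 9, 12, 16 and 20 days. As the study grouped them, the comparison of the series was made between 6 control libraries and 5 experimental ones (days 5 to 20), leaving experimental day 0 apart. Each genotype was 1 line, so genotype and line cannot be told apart, and every SD below is a spread over days of one line and not over animals or clones. Loss of the Sdhc exon was not read from these files.

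Most CpG sites of a mammalian genome are methylated by DNMT enzymes, and the chief exceptions are CpG islands, promoters and active enhancers. Far from genes CpG sites are few, and in cultured fibroblasts long gene-poor stretches are known to hold intermediate methylation. TET dioxygenases oxidize 5-methylcytosine, and succinate, which accumulates when the succinate dehydrogenase subunit SDHC is lost, is a known inhibitor of this enzyme class. RRBS cuts DNA at CCGG and so reads few sites in such regions. The comparison of the series asks whether methylation there differed between the lines. A change with induction is addressed only by the tests over days and of day 0 against later days.

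Members were poor in measured sites. Here CpG-sparse refers to the cytosines measured in all 12 libraries, since the CpG content of the sequence was not read. They held 22483 of the 606488 autosomal cytosines listed in all 12 libraries. Of the members, 2730 (48.5%) had the minimum of 3 cytosines, and the cytosines of a member spanned a median of 97 bp. The nearest gene end was a median of 42.8 kb away, with quartiles at 28.7 and 74.8 kb and the farthest member at 642 kb. At the distance limit, the 20 members just inside it (20.009 to 20.098 kb) had mean levels of 0.750 in the control and 0.723 in the experimental series. The 20 windows just outside it (19.924 to 19.997 kb) had mean levels of 0.717 and 0.708.

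Depth per site is unknown, since the files give a percentage without reads. The libraries listed 932307 (control day 12) to 1716381 (control day 5) cytosines. Values of exactly 0 or 1, which few reads favour, made up 17.97% of member cytosines in the experimental library of day 16 and 72.3% in the control library of day 12. The cytosines of the 2 strands of a CpG, read as 1053 pairs, differed by a mean of 0.141 in the former library and 0.294 in the latter. The control library of day 12 therefore stood apart in precision, and ranges whose end it set are also given without it in the comparisons of libraries. The experimental line listed 1229 to 1622 cytosines on chromosome Y and the control line 166 to 204 and this held at day 0. The labels do not give the sex of the embryos, so sex, line and genotype cannot be told apart in any difference between the lines below.

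Distal CpG-sparse windows were mostly methylated, but few were fully so. The methylation level (beta, the mean fraction methylated over the cytosines of a window) had a mean over members of 0.672 ± 0.0044 (SD, n = 6) for control libraries. It was 0.686 ± 0.0052 (SD, n = 5) for experimental libraries. By library, it was 0.683, 0.693, 0.688, 0.679 and 0.688 on experimental days 5, 9, 12, 16 and 20. It was 0.679, 0.670, 0.672, 0.674, 0.671 and 0.665 in the 6 control libraries, in the same order from day 0. The experimental library of day 0 had a mean of 0.685. The 2 series did not overlap, but only just: the lowest experimental and the highest control library both rounded to 0.679. The mean difference was 0.0143 over members and 0.0118 over all windows tested. Over all windows the series did not overlap either, at 0.521 to 0.535 against 0.512 to 0.520. At day 0, the experimental library lay 0.0134 above the control mean over all days but 0.00645 above the control library of day 0, the highest of the control line.

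**Figure D1:**
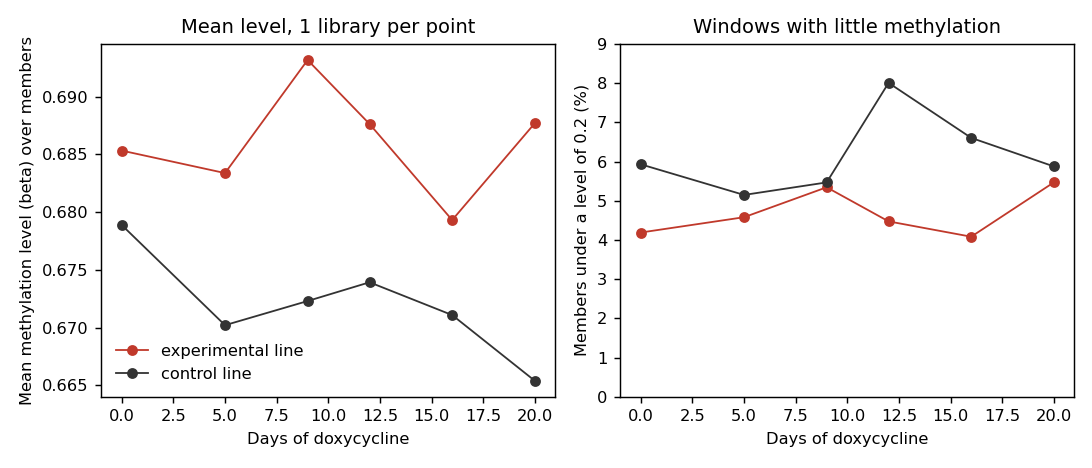
Mean methylation level over the 5632 members (left, beta, axis not starting at 0) and share of members under a level of 0.2 (right, percent) against days of doxycycline, with 1 library per point and 1 line per colour. The experimental line lies above the control line in mean level on every day, day 0 included, at 0.679 to 0.693 against 0.665 to 0.679.

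Windows with little methylation were rare among members. In the experimental series, 4.08% to 5.47% of members had a level under 0.2, against 5.15% to 8.01% in the control series and 4.19% in the experimental library of day 0. The highest value was that of control day 12, and without it the control range was 5.15% to 6.61%. Levels of 0.2 to 0.8 were held by 53.5% to 59.5% of members in the experimental and 52.6% to 59.3% in the control libraries. Levels over 0.8 were held by 36.4% to 41.2% and 35.6% to 39.3%. Control day 12 set the lowest control share at 0.2 to 0.8 and the highest over 0.8. Without it these control ranges were 55.6% to 59.3% and 35.6% to 38.5%. The shares of all 3 classes overlapped between the lines.

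For CpG-sparse windows inside genes, of which there were 39975, the picture was one of extremes. A level under 0.2 was found in 21.8% to 22.3% of them in the experimental libraries, and 31.9% to 33.8% lay between 0.2 and 0.8. The mean over windows was 0.603 in control and 0.615 in experimental libraries. These windows have the same range of cytosine numbers, but they include promoters, and whether precision per site differs between the classes was not tested. The differences between the classes are given as a description.

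**Figure D2:**
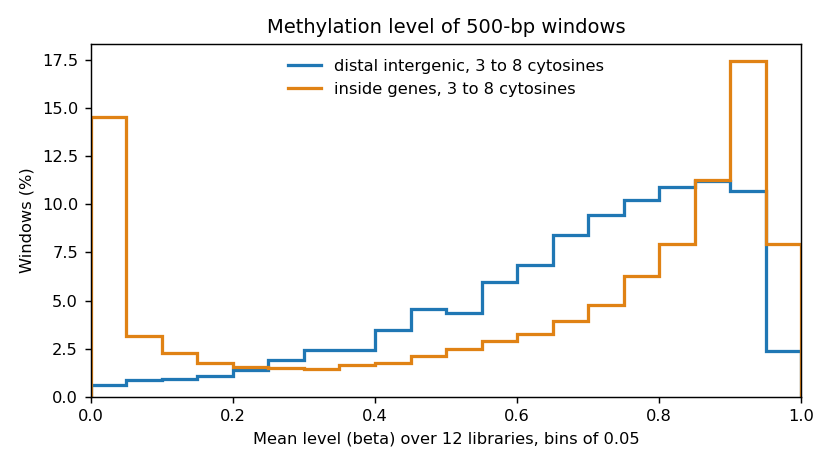
Share of windows (percent) by mean level over the 12 libraries, in bins of 0.05, for the 5632 distal windows and the 39975 windows inside genes with the same number of cytosines. Distal windows form one broad slope that peaks below full methylation, while windows inside genes have a peak at each end.

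The state of single members across the time course followed the same pattern. In all 12 libraries, 807 members (14.3%) stayed between 0.2 and 0.8, 427 (7.58%) stayed over 0.8 and 52 (0.923%) stayed under 0.2. Inside genes those shares were 6.98%, 15.9% and 15.4%. In CpG-sparse intergenic windows within 20 kb of a gene they were 10.1%, 8.84% and 13.2%. In distal windows with over 8 cytosines they were 22.4%, 9.41% and 7.65%. A further 239 members (4.24%) had a level under 0.2 in at least 1 library and over 0.8 in another, against 2.48% inside genes. Only 2 members had the same value in every library.

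Those 2 were among the members with the lowest levels. The window chr15:68362501-68363000, 4 cytosines at 21.5 kb from Mir30d, the gene of a microRNA, was listed at 0 in all 12 libraries. So was chr1:178369001-178369500, 7 cytosines at 30.4 kb from Hnrnpu, which encodes a nuclear RNA-binding protein. The window chr5:3152001-3152500 was listed at 0 in 11 libraries and at 0.00263 on control day 12. The window chr12:86801001-86801500, 20.2 kb from Gm32806 and 32.2 kb from Lrrc74a, was listed at 0 in all but the experimental libraries of day 0 (0.00667) and day 5 (0.00357). With depth unknown, no upper limit can be set on these levels.

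Level varied with position along the genome. Between adjacent members, 248 pairs, the levels averaged over all libraries correlated with r = 0.60 across pairs. The correlation was 0.32 at separations of 1 to 10 kb, 0.27 at 10 to 100 kb and 0.11 at 100 kb to 1 Mb. These pairs share libraries and many share a member, so the values are a description. Of 112 fixed megabases with at least 8 members, the lowest mean level was 0.284, over 15 members at chr5:120000001-121000000, and the highest 0.872. By chromosome, the control mean was lowest on chromosome 7 (0.606, with 0.630 in the experimental series) and highest on chromosome 10 (0.736 in both).

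Level differed little with distance from genes within the class. Control means were 0.674 for 3262 members at 20 to 50 kb, 0.666 for 1450 at 50 to 100 kb, 0.680 for 676 at 100 to 200 kb and 0.660 for 244 beyond 200 kb. The experimental means were 0.690, 0.678, 0.695 and 0.664.

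The difference between the lines was seen in members of low and intermediate level. For the 196 members whose mean over all 12 libraries was under 0.2, the experimental libraries averaged 0.119 to 0.130 and the control libraries 0.0791 to 0.104, with 0.132 in the experimental library of day 0. For the 913 members at 0.2 to 0.5, the ranges were 0.391 to 0.403 against 0.353 to 0.379, with 0.397 at experimental day 0. For the 2545 members at 0.5 to 0.8, they were 0.675 to 0.690 against 0.658 to 0.671, with 0.682 at experimental day 0. In these 3 classes the series did not overlap, and the day 0 library lay at or above the lower end of the experimental range. For the 1978 members over 0.8, they were 0.872 to 0.888 against 0.875 to 0.891 and overlapped. The pattern was not particular to members. Inside genes, windows under 0.2 had 0.0485 to 0.0511 against 0.0394 to 0.0446, and those at 0.2 to 0.5 had 0.365 to 0.383 against 0.335 to 0.353. Those at 0.5 to 0.8 had 0.677 to 0.701 against 0.656 to 0.671. Over 0.8 the series overlapped there too, at 0.898 to 0.912 against 0.897 to 0.905.

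Single windows varied widely between libraries of one line. The median SD of a member was 0.105 over the control and 0.0885 over the experimental libraries, against 0.0760 and 0.0641 inside genes. Without control day 12 the control median was 0.0892 for members and 0.0641 inside genes. By mean level over the 12 libraries, with all 6 control libraries, the classes were closer at intermediate levels. The control median was 0.124 in both at 0.2 to 0.5, and 0.123 for members against 0.117 inside genes at 0.5 to 0.8. Under 0.2 it was 0.0704 against 0.0225, and over 0.8 it was 0.0787 against 0.0675. Among the 15 pairs of control libraries, 11.1% to 34.0% of members differed by over 0.2, with a median of 20.6%. Leaving out control day 12 brought the highest pair to 25%. Among the 15 pairs of the experimental line, day 0 included, the range was 9.30% to 25.6% with a median of 17.97%. Between the lines on the same day, 6 pairs, it was 17.6% to 33.8% with a median of 25.1%, and the highest pair without control day 12 was 26.4%. Pairs within and between lines overlapped broadly.

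**Figure D3:**
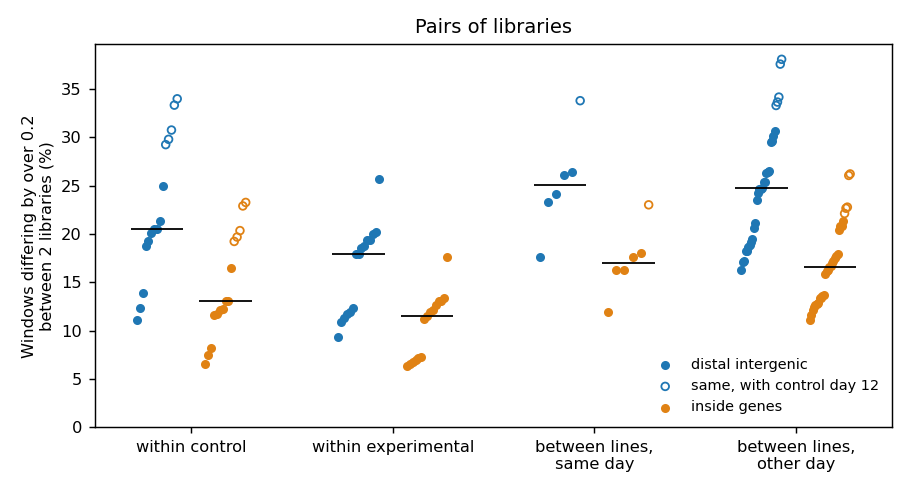
Percent of windows whose level differs by over 0.2 between 2 libraries, with 1 point per pair of libraries, a black line at each median, and open points for pairs with control day 12. For distal windows the medians are 20.6% within the control line, 17.97% within the experimental line, and 25.1% and 24.7% between the lines on the same and on other days.

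The experimental library of day 0 was on the whole closer to the later libraries of its own line than to the control line, with some overlap. Over members, its levels correlated with those of the 5 later experimental libraries with a median r of 0.84 (0.76 to 0.86), and with those of the 6 control libraries with a median r of 0.73 (0.63 to 0.78). The share of members that differed from it by over 0.2 was 9.30% to 19.4% in the former and 17.2% to 33.3% in the latter. Without control day 12, the control values were r from 0.7003 to 0.78 and at most 24.2%. These are descriptions over shared sites, and precision differed between libraries as given above.

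Between the control and the experimental series, 134 members (2.38%) passed limma's moderated test on M-values (the log2 ratio of methylated to unmethylated fraction, with an offset of 0.01) at an adjusted p under 0.05. Of all 73824 windows tested, 2.29% passed, so the share among members was close to the background. The level was higher in the experimental series in 100 of the members and lower in 34. The background was 1.52% higher and 0.768% lower. At an unadjusted p under 0.05, 999 members passed, 17.7% against a background of 17.4%. The experimental and control libraries did not overlap in 197 members in the higher and 87 in the lower direction, which together are 5.04% of members against a background of 4.66%.

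The count of called members was not firm. It ranged from 53 (0.941% of members, 1.04% of all windows) without experimental day 5 to 156 (2.77% and 2.70%) without control day 12. It was 250 (4.44% and 4.04%) with an offset of 0.1 and 28 (0.497% and 0.547%) when the median of the cytosines replaced their mean. The counts with each other library left out are among the limits given at the end.

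Called members differed by a median of 0.287 in level, with a range of 0.0934 to 0.605. The 100 higher members had a median level of 0.470 in the control and 0.799 in the experimental series. The 34 lower members had medians of 0.833 and 0.484. The control level was between 0.2 and 0.8 in 95 of the called members, under 0.2 in 18 and over 0.8 in 21. They lay on all 19 autosomes, from 0.862% of the members of chromosome 14 to 4.03% (11 of 273) of those of chromosome 12, and 4 lay within 50 kb of another.

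In most called members, experimental day 0 lay on the side of the later experimental libraries. In 120 of the 134 (89.6%), the experimental library of day 0, which the test did not use, lay past the midpoint between the series means on the experimental side. It lay beyond all 6 control libraries also in 120. The median level at experimental day 0 was 0.788 in the higher and 0.474 in the lower members, next to the later medians of 0.799 and 0.484. The 2 lines differed by under 0.1 at day 0 in 17 members (12.7%) and by over 0.2 in either direction in 83, and in 5 the day 0 difference had the opposite sign to the call. Each of these comparisons reads day 0 against control libraries that also chose the called members, so no expected value can be set beside the counts and they are a description. The library of day 0 and the later experimental libraries come from one line, so this agreement says nothing on other lines.

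**Figure D4:**
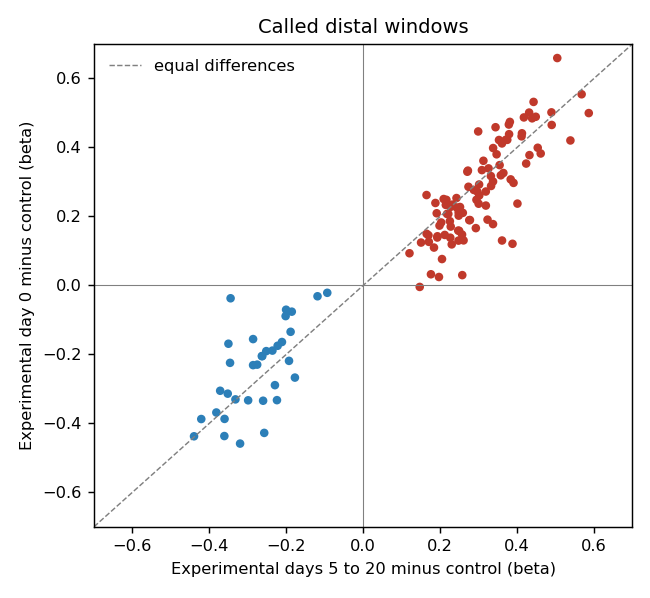
Difference from the control mean (beta) at experimental day 0 against that of experimental days 5 to 20, for the 134 called members, with 1 point per member, red where called higher and blue where called lower. Both axes subtract the same control mean. Points scatter around the dashed line of equal differences, and in 120 of 134 the day 0 value is past the midpoint.

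By distance from genes, 91 of 3262 members (2.79%) were called at 20 to 50 kb, 30 of 1450 (2.07%) at 50 to 100 kb, 13 of 676 (1.92%) at 100 to 200 kb and 0 of 244 beyond 200 kb. The background was 2.29%, the counts beyond 100 kb are small, and no trend with distance was tested. By level, the called share was 3.06% under 0.2, 4.38% at 0.2 to 0.5, 2.28% at 0.5 to 0.8 and 1.52% over 0.8. For windows inside genes of the same levels it was 1.35%, 4.51%, 3.89% and 1.42%.

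A rise or fall below is a level higher or lower in the experimental than in the control series, not a change over days. Among called members with at least 4 cytosines and no overlap between series, the largest rise was at chr5:129463501-129464000, which has 6 cytosines between Gm34145 and Gm34468 (29.6 kb). Its level was 0.913, 0.714, 0.712, 0.874 and 0.667 on experimental days 5 to 20. On control days 0 to 20 it was 0.260, 0.182, 0.194, 0, 0.238 and 0.152. Experimental day 0 stood at 0.881, with the later experimental libraries. The means were 0.776 ± 0.110 (SD, n = 5) and 0.171 ± 0.0925 (SD, n = 6), and the adjusted p in limma was 0.0302. It stayed under 0.05 in 3 of 11 fits that left out 1 library and was 0.0823 with the median of the cytosines.

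The window chr7:115450001-115450500, 4 cytosines at 20.6 kb from Sox6, which encodes a transcription factor of the SRY-box family, was close to fully methylated in the experimental line. Its level there was 0.946, 0.908, 0.954, 0.935 and 0.900 on days 5 to 20. In the control line it was 0.263, 0.448, 0.405, 0, 0.5 and 0.436 on days 0 to 20. The 0 belongs to control day 12, and experimental day 0 stood at 0.842. The adjusted p in limma was 0.0383, and it stayed under 0.05 in 1 of 11 fits that left out 1 library.

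The window chr9:71342001-71342500 has 6 cytosines and lies 29.0 kb from Gm32769 and 46.0 kb from Aldh1a2, the gene of an enzyme that makes retinoic acid. Its level was 0.615, 0.658, 0.633, 0.461 and 0.733 on experimental days 5 to 20. It was 0.168, 0.136, 0.0667, 0.333, 0.185 and 0.0631 on control days 0 to 20, so that the highest control value was that of day 12. Experimental day 0 had 0.541, above every control library. The adjusted p in limma was 0.0145, and it stayed under 0.05 in all 11 fits that left out 1 library.

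The other 3 rises by this rule were chr4:10038501-10039000 (0.449 in the control and 0.903 in the experimental series), chr12:86593001-86593500 (0.217 and 0.656) and chr15:89698001-89698500 (0.130 and 0.553). Experimental day 0 had 0.848, 0.701 and 0.483 in these windows. Their adjusted p-values in limma were 0.0273, 0.0269 and 0.0234, and they stayed under 0.05 in 6, 6 and 9 of 11 fits that left out 1 library. They reached 0.0657, 0.120 and 0.0944 in the settings tried, apart from the fit with the day as a block. Their nearest genes were Gm35008, Gm52007 and Gm18476, at 108.9, 40.2 and 37.7 kb.

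The largest fall was at chr9:48079501-48080000, 4 cytosines at 53.0 kb from Gm40518. The level was 0.269, 0.208, 0.186, 0.104 and 0.276 on experimental days 5 to 20. It was 0.595, 0.575, 0.592, 0.821, 0.750 and 0.446 on control days 0 to 20. Experimental day 0 had 0.242, within the range of the later experimental libraries and below every control library. The adjusted p in limma was 0.0191. It stayed under 0.05 in all 11 fits that left out 1 library but was 0.251 with the median of the cytosines.

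The window chr5:114513501-114514000, 4 cytosines at 33.5 kb from Gm34722, was close to unmethylated in the experimental line alone. The level was 0.0527, 0, 0.0384, 0.0621 and 0.114 on experimental days 5 to 20. It was 0.526, 0.526, 0.376, 0.298, 0.441 and 0.384 on control days 0 to 20. Experimental day 0 had 0.120. The adjusted p in limma was 0.0139. It stayed under 0.05 in all 11 fits that left out 1 library but was 0.0584 with the median of the cytosines.

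The other 4 falls were chr9:61634001-61634500 (0.833 in the control and 0.451 in the experimental series), chr11:84761001-84761500 (0.833 and 0.487), chr11:18400501-18401000 (0.717 and 0.418) and chr5:120304001-120304500 (0.503 and 0.217). The window chr11:84761001-84761500 lies 51.8 kb from Mrm1, which encodes a mitochondrial rRNA methyltransferase. Experimental day 0 had 0.464, 0.608, 0.384 and 0.272, below every control library in each. The adjusted p-values in limma were 0.0279, 0.0314, 0.0301 and 0.0220, and they stayed under 0.05 in 6, 5, 3 and 10 of 11 fits that left out 1 library. They reached 0.0618, 0.163, 0.369 and 0.0531 in the settings tried, apart from the fit with the day as a block.

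**Figure D5:**
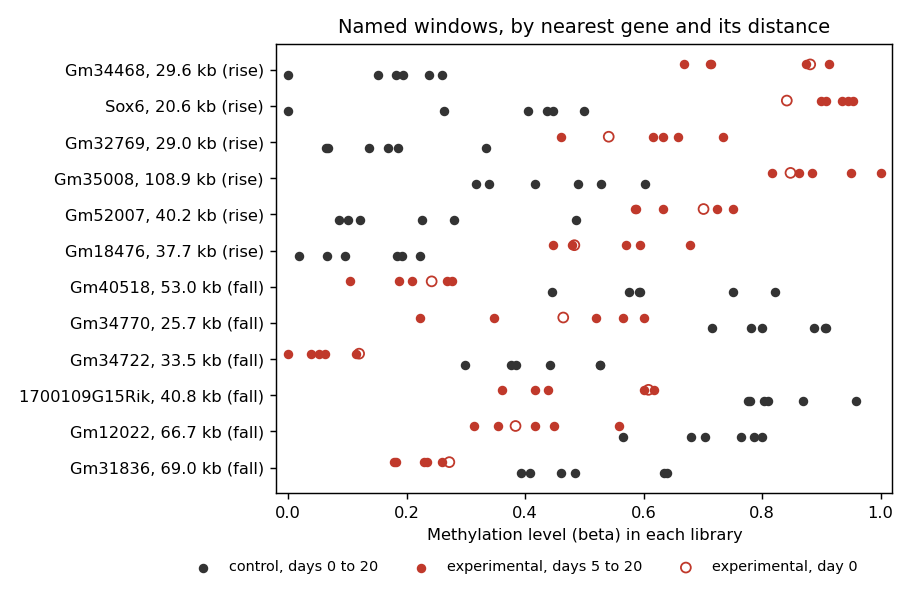
Level (beta) in each of the 12 libraries for the 6 largest rises and 6 largest falls, each labelled by its nearest gene and the distance to it, with control in black, experimental days 5 to 20 in filled red and experimental day 0 in open red. The filled red and black points of a window do not overlap, which was part of the rule, and each open point lies outside the control range.

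Called members with a small day 0 difference were few. Of the 72 called members with at least 4 cytosines, 7 differed by under 0.1 between the lines at day 0, of which 5 were higher and 2 lower. The largest of these was chr10:22928001-22928500, 48.2 kb from Gm35126. It had 0.660 at experimental day 0 and then 0.794, 0.903, 0.748, 0.774 and 0.714. The control line had 0.607 at day 0 and then 0.569, 0.442, 0.406, 0.512 and 0.427. The small day 0 difference was part of the rule that chose the window, so this course is a description. Between the series its adjusted p in limma was 0.0261. It reached 0.344 in the settings tried, apart from the fit with the day as a block. In limma's test of day 0 against later days between the lines, its adjusted p was 0.958, and those of the 4 other windows named by this rule were 0.875 to 1.

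At chr8:36539001-36539500, between Trmt9b (24.7 kb) and Dlc1 (28.5 kb), the level was 0.746 at experimental day 0 and then 0.958, 0.969, 0.807, 0.881 and 0.978. The control line had 0.807, 0.730, 0.682, 0.708, 0.721 and 0.681. Here the control value of day 0 and the experimental value of day 12 both rounded to 0.807. The adjusted p in limma was 0.0434, and it stayed under 0.05 in 1 of 11 fits that left out 1 library. It reached 0.622 in the settings tried, apart from the fit with the day as a block. The third rise, chr10:7269001-7269500 at 57.0 kb from Cnksr3, had means of 0.549 in the control and 0.806 in the experimental series, with 0.697 at experimental day 0.

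In both falls with a small day 0 difference, the control series was close to fully methylated. At chr2:26526501-26527000, the control libraries lay between 0.991 and 1. The experimental libraries had 0.964 at day 0 and then 0.841, 0.953, 0.957, 0.891 and 0.744. The adjusted p in limma was 0.0139. It stayed under 0.05 in all 11 fits that left out 1 library, but was 0.0961 on beta values and 0.342 with the median of the cytosines. At chr16:61715501-61716000, the means were 0.981 in the control and 0.795 in the experimental series. Experimental day 0 had 0.905, just below the lowest control library (0.906). The adjusted p in limma stayed under 0.05 in 1 of those 11 fits. It reached 0.282 in the settings tried, apart from the fit with the day as a block.

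The difference between the lines was next tested for a change over days. In limma's test of the interaction of line and day over all 12 libraries, 0 members had an adjusted p under 0.05, and the smallest was 1. At an unadjusted p under 0.05 there were 254 members (4.51%), against a background of 4.35%. With beta values as input, the counts were 0 and 307 (5.45%, against 4.56% of all windows).

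The 3 members with the lowest p for that interaction all had a larger range in one line. At chr7:66524001-66524500, 57.6 kb from Gm33570, the control line had 0.826, 0.638, 0.567, 0.367, 0.376 and 0.326 on days 0 to 20. The experimental line stayed between 0.657 and 0.778. Its slope differed by 0.18 M-value units per day (SE 0.039), with an adjusted p of 1 in limma. At chr18:87105001-87105500, the control line had 0.363, 0.574, 0.604, 0.761, 0.788 and 0.817 while the experimental line lay between 0.552 and 0.766. At chr14:87281001-87281500, which is 65.0 kb from Gm23278 and 140.0 kb from the formin gene Diaph3, the experimental line had 0.610, 0.617, 0.801, 0.784, 0.799 and 0.938. The control line lay between 0.750 and 0.946. None of the 3 passed the test.

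When day 0 was set against all later days in each line, 1 member (0.0178%) passed the limma test of the difference between the lines. Of all 73824 windows, 30 (0.0406%) passed. At an unadjusted p under 0.05 there were 328 members (5.82%), against a background of 5.72%. The called member was chr15:53027001-53027500, with 3 cytosines at 41.0 kb from Ext1, which encodes an enzyme of heparan sulfate synthesis. Its control value at day 0 was 0, and later control values were 0.444, 0.595, 0.486, 0.546 and 0.517. The experimental line had 0.415 at day 0 and 0.333 to 0.453 later. The call, with an adjusted p of 0.00919 in limma, thus rested on 1 library.

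Members with the widest range within a line lay at both ends of the scale in single libraries. At chr10:71637501-71638000, the control libraries had 0.750, 0.731, 0.853, 0, 1 and 0.738 on days 0 to 20, with the 0 on day 12. At chr14:37677501-37678000 the control value was also 0 on day 12, and 1 on day 0. At chr1:5430501-5431000, 157.7 kb from the kappa opioid receptor gene Oprk1, it was 0 on day 9 and 1 on day 0. In the experimental line, chr13:20676501-20677000, 68.4 kb from Elmo1, which encodes an adaptor of Rac activation, had 1 on day 5 and 0 on day 9. At chr7:32297501-32298000, 27.5 kb from the secretoglobin gene Scgb2b12, it had 0.2 on day 9 and 1 on day 20. At chr9:49225001-49225500, it had 1 on day 9 and 0.205 on day 20. In each of these 6 windows the adjusted p between the series in limma was 0.732 to 0.920.

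Differences between the lines were shared by close neighbours. Over the 248 adjacent pairs, the experimental minus control difference correlated with r = 0.38 across pairs, and over the 1040 pairs at 1 to 10 kb with r = 0.06. For the difference at day 0 alone, these values were 0.37 and 0.05. Adjacent windows may hold cytosines read on the same fragments. Of the 112 megabases with at least 8 members, 68 had a higher mean in the experimental series, and the mean difference ranged from -0.108 to 0.148. The series did not overlap in 4 megabases in the higher and in 4 in the lower direction. Megabase means were not computed over all windows tested, so these counts have no background beside them and are a description.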

How the data were processed

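RRBS libraries, 12 in all, were sequenced from both ends. The authors used Bismark (version not given in the sources used here) on build mm10 and deposited 1 value per CpG cytosine, the percent methylated. Read counts were not used here, so depth per site is unknown and no counting interval can be given. Percentages were divided by 100, cytosines listed in all 12 libraries were kept, and those of each 500 bp bin were averaged. Genes came from RefSeq's table for GRCm38.p6, the assembly named mm10. Bins were compared as M-values with limma 3.58.1 in R 4.3.3, which was tested on simulated data, and p-values were adjusted by Benjamini-Hochberg over all 73824 bins at a threshold of 0.05. The tests are 2-sided. Libraries of one line are days of one culture, so p-values measure the spread between those days. Averaging 3 to 8 cytosines gives each the same weight whatever its coverage, which lets thinly read sites move a value.

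Named windows had at least 4 cytosines, except the call for day 0 against later days, which was named as a single call. They were the 6 largest rises and 6 largest falls among called windows whose series did not overlap, the 3 largest in each direction with a day 0 difference under 0.1 (only 2 fell), the 4 with the lowest maximum, the 3 with the widest range in each line and the 3 with the lowest p for line and day. Members within 5 kb of a named one in the same direction were not named again. The windows, lists and tests were chosen with earlier results of these data known. Other offsets, beta values, robust and weighted fits, other bins, other cytosine and distance limits and fits without single libraries were tried. The shares and spreads without control day 12 were added after the data were seen. Sequence of the windows was not analysed here.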

Additional observations from a re-analysis of the deposited data

Results flagged for a closer look

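In 70 groups of values (4 measures over members and each named window, by series), the highest or the lowest of the 6 control or 5 experimental libraries was compared with the gap to its neighbour by Dixon's test, and 5 stood apart. The usual rate of 1 in 20 by chance cannot be set beside this count. The named windows were chosen by their values, some of them for a wide range or a low level. Groups with the same value throughout could not stand apart. On control day 12, chr10:71637501-71638000 was at 0, with the other control libraries at 0.731 to 1. On control day 0, chr15:53027001-53027500 was at 0, with the others at 0.444 to 0.595. On control day 5, chr16:61715501-61716000 was at 0.906, with the others at 0.980 to 1. The other 2 were windows at or near 0 throughout: chr5:3152001-3152500, at 0.00263 on control day 12, and chr12:86801001-86801500, at 0.00357 on experimental day 5. In both, all other values of the group were 0, so any other value stands apart by construction. The part of read depth in these values was not tested.

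At chr15:53027001-53027500 the change from day 0 to later days differed between the lines, with an adjusted p of 0.00919 in limma. It rests on the control value of 0 at day 0, and without that library the contrast cannot be made.

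Outside the autosomes that were compared, the experimental line listed 1229 to 1622 cytosines on chromosome Y and the control line 166 to 204.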

How the results depend on the processing

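The 134 called members (100 higher, 34 lower) became 250 (176 and 74) with an offset of 0.1, 247 (170 and 77) on beta values, 240 (168 and 72) with arrayWeights, 241 (175 and 66) with experimental day 0 included, and 28 (17 and 11) with the median of the cytosines. In the same order, these 5 counts were 4.44%, 4.39%, 4.26%, 4.28% and 0.497% of members. Over all windows the shares were 4.04%, 3.87%, 4.07%, 3.91% and 0.547%. Among the 1480 members with 5 to 8 cytosines 44 (2.97%) were called (34 and 10), and among the 920 over 100 kb from a gene 13 (1.41%, 6 and 7). The share over all windows, of any cytosine number and distance, was 2.29% in that fit. Robust estimation, control days 5 to 20, bins shifted by 250 bases and removal of cytosines with one value gave 95 to 119. These were 1.70% to 2.11% of members, against 1.68% to 2.18% of all windows. Leaving out 1 library gave 53 to 156 (44 to 111 higher, 9 to 45 lower). These were 0.941% to 2.77% of members, against 1.04% to 2.70% of all windows. The count fell by over 1.5 times without experimental day 5 (53), 12 (63), 16 (76) or 20 (70), and without control day 5 (80), 9 (71), 16 (87) or 20 (70). For these changes, beyond fewer libraries in a fit, the cause was not tested.

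With the day as a replicate block, 5 pairs of days were fitted and the count was 0 (0 higher, 0 lower) in limma, with 0 of all windows. At an unadjusted p under 0.05 there were 942 members (16.7%), against 15.7% of all windows. Deviations of libraries of the same day correlated between -0.018 and 0.023, and a library correlated best with its own day for 1 of the 5 days. No pairing by day was seen in these values, but they are deviations of single windows and cannot exclude it.

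The test over days gave 0 members, and 0 of all windows, in every fit without 1 library. It gave 1 member for day 0 against later days, with 30 of all windows. None of the 17 named called members changed direction in the fits of the 2 series. All were chosen as called and most also for no overlap between the series, so this was largely fixed by the choice. The mean level moved to 0.696 in the control and 0.707 in the experimental series with 5 to 8 cytosines, and to 0.7001 and 0.712 with the median, and the experimental series stayed above. The share between limits of 0.3 and 0.7 was 37.1% and 35.9%, and that between 0.2 and 0.8 with 5 to 8 cytosines was 52.7% and 52.4%. Sites have no stated coverage, which limits every single-window value, most of all at control day 12.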
